A study of Homo sapiens with 6 samples.

Results

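Ephrins and receptor tyrosine kinases were followed in HEK293, a human cell line of embryonic kidney origin, after treatment with B23, a compound that the series names a quinolinol, or with the solvent DMSO. The genes were taken by symbol alone: ephrin ligands (EFNA, EFNB), Eph receptors (EPHA, EPHB), the FGFR, ErbB, PDGFR, DDR and NTRK families, and a fixed set of single receptors from EGFR to LTK. This took 45 of the 15496 genes in the deposited table, 7 ephrins and 38 receptors, of which 12 were Eph receptors. Other symbols of these families, among them EFNA2, EPHA8, EPHB6, PDGFRB, NTRK3 and ALK, were not analysed here. Polyadenylated RNA was sequenced in 3 libraries labelled DMSO control and 3 labelled Quinolinol B23, from the same line in the same serum-supplemented RPMI medium, with no genetic change named in the labels. The labels state neither dose nor time of treatment. They number the libraries as replicates without saying whether cultures were separate, so the p-values reflect variation among these libraries alone, and that may be technical.

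Receptor tyrosine kinases are single-pass membrane proteins that bind a ligand outside the cell and phosphorylate tyrosines inside it, which recruits adaptors and starts the RAS-MAP kinase and PI3 kinase pathways. Eph receptors are the largest family among them and differ in that their ligands, the ephrins, are themselves tied to the surface of a neighbouring cell. Ephrin-A ligands hang on a lipid anchor and ephrin-B ligands cross the membrane, and each class mostly binds the Eph receptors of the same letter. In the developing kidney RET, MET and FGF receptors take part in the growth of tubules.

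The table holds CPM, read counts scaled by a divisor for each library that is not the total of its listed genes. Whole reads could be recovered from these values, 40950318 to 47444126 per library over the listed genes. A value of 1 read was worth 0.0158 to 0.0217 CPM. All 8 HEK293, kidney and neural markers set for this line were measured, at a summed 925 to 943 (DMSO) and 342 to 356 CPM (B23), with 7 lower and 1 higher in B23. Among all genes tested 49.0% were lower and 39.6% higher. Most of the fall of this sum was IRS4, at 526 CPM (DMSO) and 78.3 CPM (B23). Of markers of other cell types, CD14 (1.05 to 1.30 CPM in DMSO, 0.177 to 0.304 CPM in B23, without overlap), TEK (0 to 0.138 CPM) and the fibroblast genes COL1A1 and DCN, summed at 9.07 to 9.86 (DMSO) and 11.5 to 13.4 CPM (B23), were measured, with the fibroblast marker DCN at a mean of 0.0796 CPM (DMSO) and 0.0410 CPM (B23). Other markers, among them PTPRC, CD3E, LYZ, PECAM1, CDH5, VWF, COL3A1, LUM, ALB, APOA1 and TTR were not analysed here. COL1A1, at 9.37 CPM (DMSO) and 12.4 CPM (B23), was called higher (log2 difference 0.39, limma adjusted p = 4.45e-06). The part of these markers in the results was not tested. In bulk RNA, fewer cells that express a gene and less of its RNA per cell cannot be told apart.

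Of the 45 genes, 42 reached a mean of 1 CPM and were tested in limma on log2(CPM + 0.5). In B23, 13 were higher and 22 lower at a Benjamini-Hochberg adjusted p under 0.05, and 7 did not pass. Among all 14792 genes tested the shares were 39.6% higher and 49.0% lower, 88.6% together, against 31.0% and 52.4%, 83.3% together, for the ephrins and receptors. The share of changed members was thus not above that of all genes. Changes of 2-fold or more in log2 terms were called higher for 4 members (EPHA2, EFNA1, EPHA6, DDR2) and lower for 6 (PDGFRA, ROR1, ROR2, KIT, ERBB2, ERBB3), where 9.65% and 15.8% of all genes passed. The values of the 3 libraries per group did not overlap in 36 of the 42, while this held for 88.9% of all genes. The median log2 difference of the members was -0.19, beside -0.10 for all genes. With the listed genes scaled to equal totals these medians were -0.44 and -0.34, and the share of called members that were lower went from 62.9% to 75.7%, while quantile normalization gave 52.6%. The share among all called genes went from 55.3% to 67.5% with equal totals and to 51.6% with quantile normalization.

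**Figure D1:**
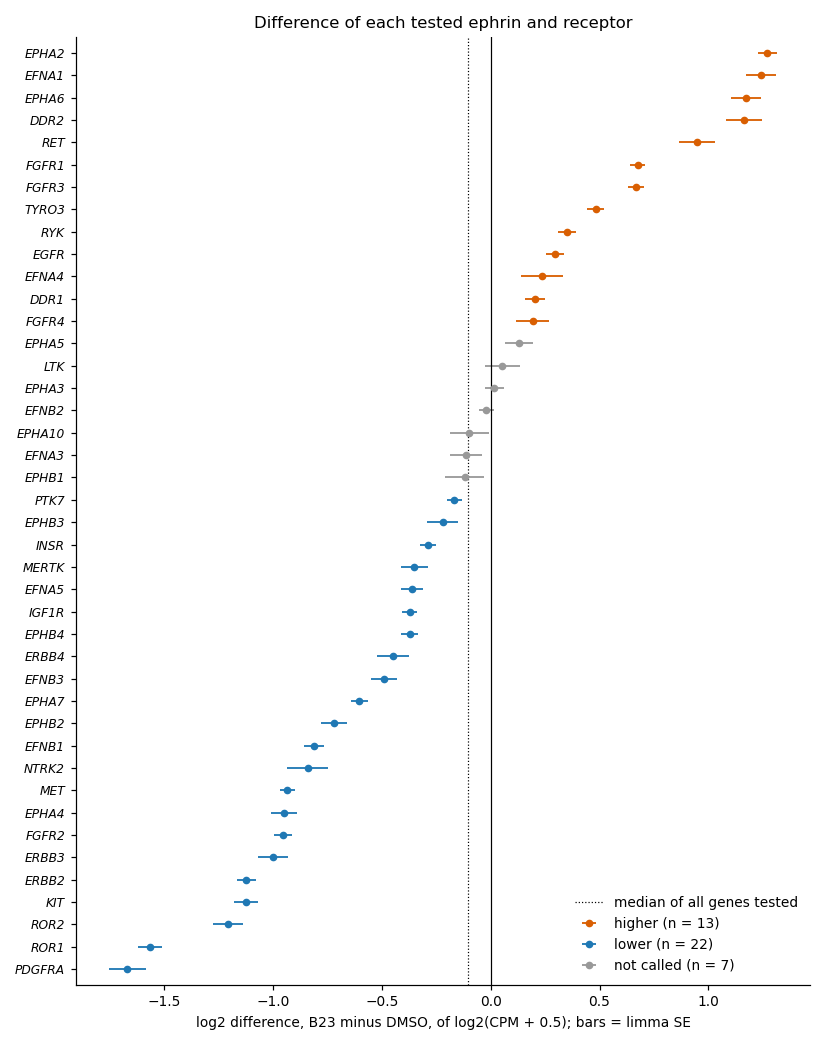
Log2 difference between B23 and DMSO on the log2(CPM + 0.5) scale for the 42 tested ephrins and receptors, ordered by size, with the limma standard error as bars and colours for the call. EPHA2 is at the top at 1.27 and PDGFRA at the bottom at -1.67, and the dotted line marks the median of all tested genes at -0.10.

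**Figure D2:**
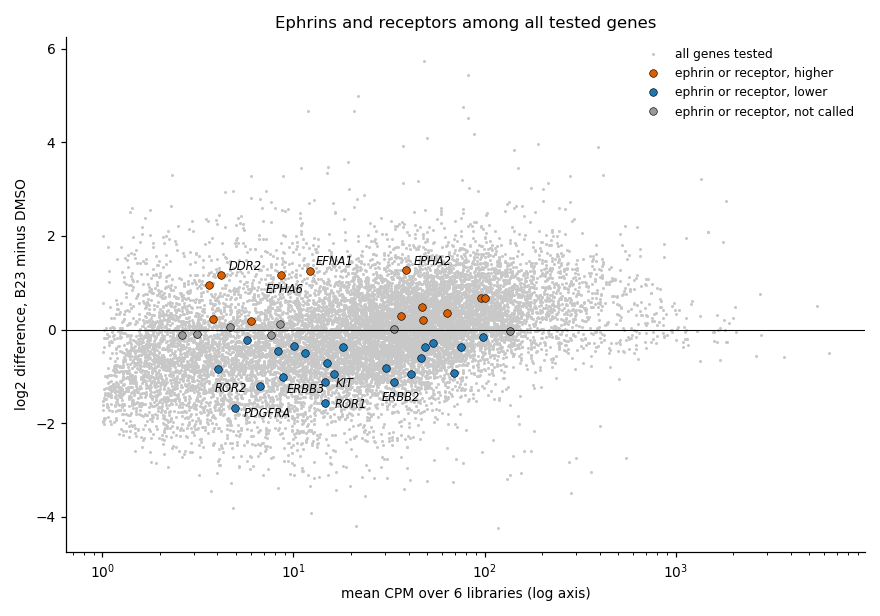
Mean CPM over the 6 libraries (log axis) against the log2 difference, B23 minus DMSO, for all 14792 tested genes in grey and the 42 ephrins and receptors in colour. The members lie between -1.67 and 1.27 inside a cloud that reaches from -4.24 to 5.74. The 10 members that changed at least 2-fold by this log2 difference are named. RET, 2.13-fold higher by mean CPM, is not among them.

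The 250 bases before the RefSeq start are printed for EPHA2 and EPHA6, which rose, and for ROR1 and ROR2, which fell. They had the largest changes in each direction among called members whose window holds at most 30 bases annotated as exon. Capitals mark matches, on either strand, to any of 5 motifs: ACGTG (hypoxia response core), TGANTCA (AP-1), CACGTG (E-box, which contains the hypoxia core), GGAATG (TEAD) and GGGCGG (GC box). All are on GRCh38.p14, each on the strand of its gene, EPHA2 at chr1:16156070-16156319 (minus), EPHA6 at chr3:96814344-96814593 (plus), ROR1 at chr1:63773767-63774016 (plus) and ROR2 at chr9:91950229-91950478 (minus).
EPHA2: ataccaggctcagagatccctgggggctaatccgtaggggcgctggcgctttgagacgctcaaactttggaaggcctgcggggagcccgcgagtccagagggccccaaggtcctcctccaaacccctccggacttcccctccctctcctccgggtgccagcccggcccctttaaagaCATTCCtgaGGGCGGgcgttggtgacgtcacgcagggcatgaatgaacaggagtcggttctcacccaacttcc
EPHA6: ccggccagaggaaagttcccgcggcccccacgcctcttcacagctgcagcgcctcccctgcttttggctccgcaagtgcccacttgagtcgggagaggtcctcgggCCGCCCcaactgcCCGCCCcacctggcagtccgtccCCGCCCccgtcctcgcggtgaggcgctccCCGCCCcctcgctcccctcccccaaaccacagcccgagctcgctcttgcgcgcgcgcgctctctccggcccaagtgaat
ROR1: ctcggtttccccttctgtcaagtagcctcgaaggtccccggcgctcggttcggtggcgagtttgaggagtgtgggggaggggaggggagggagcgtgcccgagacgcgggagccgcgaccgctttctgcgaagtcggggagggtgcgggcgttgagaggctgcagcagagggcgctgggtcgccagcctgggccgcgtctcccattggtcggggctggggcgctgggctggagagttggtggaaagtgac
ROR2: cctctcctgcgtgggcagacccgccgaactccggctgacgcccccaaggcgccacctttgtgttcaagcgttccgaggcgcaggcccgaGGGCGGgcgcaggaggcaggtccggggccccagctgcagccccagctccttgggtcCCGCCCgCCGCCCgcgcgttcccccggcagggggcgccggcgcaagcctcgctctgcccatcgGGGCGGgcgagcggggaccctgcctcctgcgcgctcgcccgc
The EPHA2 window holds 1 TEAD and 1 GC box match, those of EPHA6 and ROR2 hold 4 GC boxes each, and that of ROR1 holds 0 of the 5 motifs, which says only that these letters are not in this window. GC boxes are common: among tested genes with such a window, 68.5% of 10575 promoters and 31 of 38 members held one. The hypoxia core was in 3 of 38 member windows, 0 of the 12 higher and 3 of the 20 lower, and in 23.6% of all. For AP-1 the counts were 3 of 38 and 3.76% of all, for TEAD 2 of 38 and 9.23%, and for the E-box 0 of 38 and 9.06%. By direction, AP-1 was in 1 of the 12 higher and 2 of the 20 lower, and TEAD in 1 of 12 and 1 of 20. The GC box was in 10 of 12 and 17 of 20. These splits were not tested. EFNB3, EPHA10, ERBB3 and FGFR1 had no window matched by symbol.

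Among ephrin ligands, EFNA1 rose and EFNA5, EFNB1 and EFNB3 fell, while the most abundant ligand, EFNB2, did not pass the test. EFNA1, which encodes a lipid-anchored ligand that is a preferred partner of EphA2, was at 7.35, 6.54 and 7.24 CPM in DMSO and at 17.6, 15.6 and 19.0 CPM in B23. All B23 values lay above all DMSO values, a 2.47-fold rise of the mean (log2 difference 1.24, SE 0.069, limma adjusted p = 2.58e-14). EFNA1 lies on chromosome 1 from 155127460 to 155134857 in GRCh38, next to EFNA3 and EFNA4, with gaps of 39.9 and 57.9 kb. These neighbours did not move with it to the same extent. EFNA3 was at 8.06, 7.68 and 8.07 CPM in DMSO and 7.97, 6.44 and 7.56 CPM in B23, overlapping groups with a log2 difference of -0.11 (SE 0.074, limma adjusted p = 0.149). EFNA3 was called lower with equal totals (-0.35, adjusted p = 0.000124) and without B23 replicate 1 (-0.17, adjusted p = 0.0491), and higher with quantile normalization (0.32, adjusted p = 0.000464). EFNA4 was called higher at 0.23 (SE 0.097, limma adjusted p = 0.0279), from 3.63, 3.35 and 3.26 CPM to 4.84, 3.41 and 4.15 CPM, with B23 replicate 2 inside the DMSO range. The EFNA4 call ended without B23 replicate 1 (0.13, adjusted p = 0.234), without DMSO replicates 2 and 3 or B23 replicate 3 (adjusted p = 0.0591, 0.0782 and 0.0628), without trend or robust fitting (adjusted p = 0.0593) and with equal totals of the listed genes (0.01, adjusted p = 0.914). AL691442.1, at 4.38 (DMSO) and 4.20 CPM (B23), overlaps exons of EFNA3 and EFNA4 on the same strand, which leaves the assignment of some of their reads uncertain.

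EFNB1, an X-linked gene of a transmembrane ephrin needed for craniofacial development, had 36.8, 41.6 and 39.3 CPM in DMSO and 21.8, 22.0 and 22.5 CPM in B23. The groups stood apart, 1.77-fold lower by mean (log2 difference -0.81, SE 0.046, limma adjusted p = 3.16e-14). EFNB3, the ephrin-B of the nervous system's midline, was at 13.7, 13.6 and 13.1 CPM and then at 9.43, 8.89 and 10.1 CPM, 1.42-fold lower. EFNA5, known for guiding retinal axons, went from 20.7, 21.4 and 19.1 CPM to 15.7, 15.7 and 15.8 CPM, 1.30-fold lower, without overlap. EFNB2, the arterial ephrin, was at 138, 138 and 132 CPM in DMSO and 133, 133 and 137 CPM in B23, with a log2 difference of -0.02 (SE 0.034, limma adjusted p = 0.584) and overlapping groups. Its sign depends on scaling, at 0.08 with median-of-ratios (adjusted p = 0.0262), -0.27 with equal totals (adjusted p = 7.37e-08) and -0.45 with quantile normalization (adjusted p = 1.56e-10). Per kilobase of merged exons, EFNB2 was the highest of all 45 genes, at 27.1 ± 0.744 CPM per kb in DMSO and 26.7 ± 0.468 in B23 (SD, n = 3).

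**Figure D3:**
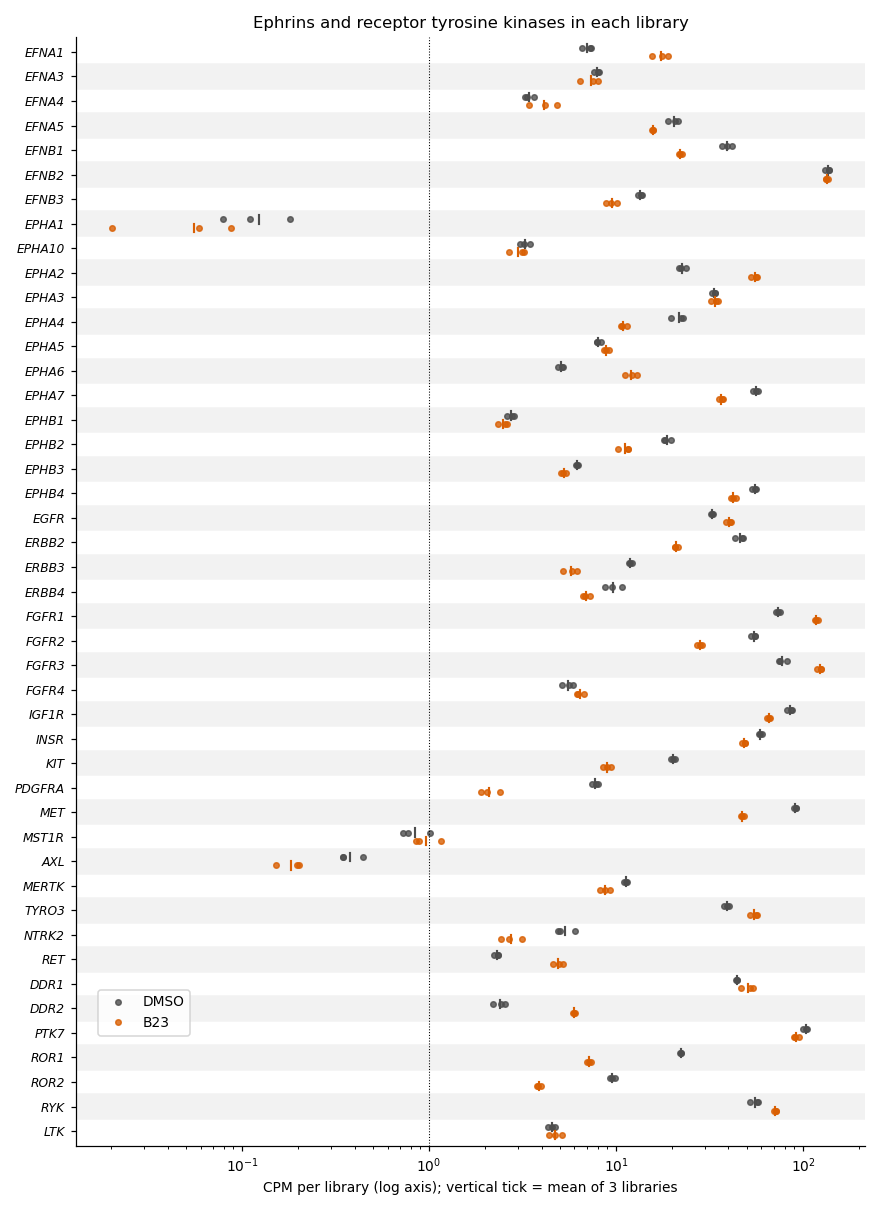
CPM in each of the 6 libraries for all 45 ephrins and receptors on a log axis, DMSO in grey and B23 in orange, with a tick at the mean of each group and a dotted line at 1 CPM. EPHA1, AXL and MST1R lie near or below 1 CPM, and groups of EPHA2 and EFNA1 stand apart upward and those of ROR1 and PDGFRA downward.

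Eph receptors of class A moved in both directions. EPHA2, the receptor of epithelial and many tumour cells, was at 21.8, 22.3 and 23.7 CPM in DMSO and 57.2, 53.1 and 55.8 CPM in B23. The lowest B23 library was above the highest DMSO library, a 2.44-fold rise (log2 difference 1.27, SE 0.044, limma adjusted p = 1.2e-18), on chromosome 1 from 16124337 to 16156087. EPHA6, a brain-expressed receptor, was at 5.13, 4.90 and 5.21 CPM and then at 12.1, 11.2 and 12.9 CPM, 2.38-fold higher (log2 difference 1.17, SE 0.068, limma adjusted p = 3.86e-14). EPHA4, which binds ephrins of both classes, fell 1.98-fold, from 22.4, 22.9 and 19.6 CPM to 10.6, 11.4 and 10.7 CPM (log2 difference -0.95, SE 0.059, limma adjusted p = 2.05e-13). EPHA7, another receptor of the developing nervous system, fell 1.53-fold, from 57.8, 55.9 and 53.9 CPM to 37.4, 35.6 and 36.8 CPM. Its groups did not overlap. In DMSO EPHA7 was the highest EphA receptor per kilobase, at 7.49 ± 0.263 CPM per kb against 5.44 ± 0.233 for EPHA2, and in B23 EPHA2 was, at 13.3 ± 0.504 against 5.07 ± 0.245 for EPHA3 and 4.91 ± 0.123 for EPHA7, the last pair within their spread (SD, n = 3).

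The other EphA receptors gave no call. EPHA3, a receptor of mesenchymal and neural cells, was at 33.9, 33.9 and 32.6 CPM in DMSO and 32.1, 35.4 and 34.1 CPM in B23, with overlapping groups and a log2 difference of 0.02 (SE 0.044, limma adjusted p = 0.729). It was called higher with median-of-ratios scaling (0.12, adjusted p = 0.0162) and lower with equal totals (-0.23, adjusted p = 3.59e-05). EPHA5, the partner of EFNA5 in axon guidance, was at 7.90, 8.34 and 7.94 CPM and at 8.60, 9.20 and 8.81 CPM, apart but not past the threshold (log2 difference 0.13, SE 0.063, limma adjusted p = 0.0581). The call of EPHA5 appeared with median-of-ratios scaling (0.23, adjusted p = 0.00197), among others, and its sign turned with equal totals (-0.11, adjusted p = 0.108). EPHA10, a member without kinase activity, was at 2.67 to 3.45 CPM over the 6 libraries (log2 difference -0.10, limma adjusted p = 0.299). EPHA10 was called lower with equal totals (-0.32, adjusted p = 0.00204) and higher with quantile normalization (0.42, adjusted p = 0.000175). EPHA1, at 0.0201 to 0.181 CPM or 1 to 11 reads, was too low to be tested and overlaps ZYX on the opposite strand, a gene at 23.8 CPM (DMSO) and 126 CPM (B23).

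Receptors of class B went down or did not pass. EPHB2, a receptor of neurons and intestinal crypts, was at 19.8, 18.3 and 18.1 CPM in DMSO and 11.7, 10.3 and 11.5 CPM in B23, 1.68-fold lower with groups apart (log2 difference -0.72, SE 0.059, limma adjusted p = 3.16e-11). EPHB4, the venous receptor that pairs with ephrin-B2, fell 1.30-fold, from 55.7, 53.3 and 56.4 CPM to 43.9, 41.1 and 42.3 CPM. SLC12A9 overlaps EPHB4 on the opposite strand and was at 18.0 CPM (DMSO) and 7.13 CPM (B23). EPHB3 was at 6.10, 6.28 and 6.21 CPM and at 5.23, 5.11 and 5.40 CPM, 1.18-fold lower (log2 difference -0.22, limma adjusted p = 0.00546). That call ended with median-of-ratios scaling (-0.13, adjusted p = 0.0937) and its sign turned with quantile normalization (0.25, adjusted p = 0.00248). EPHB1 was at 2.33 to 2.85 CPM, with a log2 difference of -0.12 (limma adjusted p = 0.2). Its groups did not overlap, the highest B23 library at 2.61 CPM and the lowest DMSO library at 2.62 CPM. EPHB1 was called lower with equal totals (-0.33, adjusted p = 0.00119) and without trend or robust fitting (adjusted p = 0.0473), and higher with quantile normalization (0.41, adjusted p = 0.000211). In all, 2 of 11 tested Eph receptors rose, 5 fell and 4 did not pass, so 63.6% were called, beside 88.6% of all tested genes.

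The ErbB receptors, which bind EGF and neuregulins, split: EGFR rose and ERBB2, ERBB3 and ERBB4 fell. EGFR, the receptor of EGF, was at 32.5, 33.2 and 32.3 CPM in DMSO and 38.6, 41.1 and 40.8 CPM in B23. The groups stood apart with a 1.23-fold rise (log2 difference 0.29, SE 0.041, limma adjusted p = 3.71e-07), which was not called with equal totals of the listed genes (0.04, adjusted p = 0.301). ERBB2, the co-receptor with no known ligand of its own, was at 47.5, 48.0 and 43.3 CPM and then at 20.7, 21.4 and 20.7 CPM. This was a 2.21-fold fall without overlap (log2 difference -1.12, SE 0.045, limma adjusted p = 2.93e-17), on chromosome 17 from 39687914 to 39730426. MIEN1 and PGAP3 overlap its ends on the opposite strand, at 33.6 and 8.47 CPM in DMSO and 21.8 and 7.45 CPM in B23. ERBB3, the neuregulin receptor with little kinase activity, fell 2.08-fold, from 11.8, 11.8 and 12.2 CPM to 5.81, 5.20 and 6.20 CPM (log2 difference -1.001, SE 0.069, limma adjusted p = 1.09e-12). It shares 31 exonic bases with AC034102.2, which was at 74.5 CPM (DMSO) and 137.6 CPM (B23). ERBB4, the other neuregulin receptor, was at 8.74, 10.8 and 9.52 CPM and at 6.87, 6.65 and 7.26 CPM, 1.4-fold lower (log2 difference -0.45, limma adjusted p = 3.64e-06), a call that ended with quantile normalization (-0.03, adjusted p = 0.716).

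Of the FGF receptors FGFR1 and FGFR3 rose by like amounts and FGFR2 fell. FGFR1, the main FGF receptor of mesenchyme, was at 73.6, 71.4 and 75.2 CPM in DMSO and 119.8, 115.8 and 117 CPM in B23, 1.60-fold higher (log2 difference 0.68, SE 0.034, limma adjusted p = 3.09e-15). FGFR3, a brake on cartilage growth in bone, was at 74.4, 75.9 and 82.5 CPM and then at 125.5, 119.6 and 125.2 CPM, 1.59-fold higher (log2 difference 0.67, SE 0.039, limma adjusted p = 4.91e-14). Neither gene had overlapping groups. FGFR2, the receptor of epithelia and of the ureteric bud, was at 53.1, 55.7 and 55.5 CPM and fell to 28.003, 27.2 and 28.9 CPM, 1.95-fold lower (log2 difference -0.95, SE 0.041, limma adjusted p = 8.65e-17). FGFR4, the receptor through which FGF19 acts in liver, was at 5.64, 5.13 and 5.86 CPM in DMSO and 6.73, 6.31 and 6.16 CPM in B23 (log2 difference 0.19, SE 0.074, limma adjusted p = 0.0181). The FGFR4 call ended without DMSO replicate 2 (adjusted p = 0.111), without B23 replicate 1 (adjusted p = 0.0813) and in DESeq2 (adjusted p = 0.0501), and its sign turned with equal totals (-0.04, adjusted p = 0.597).

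Receptors of insulin and its relatives were moderately lower. IGF1R, the receptor of insulin-like growth factors, was at 86.1, 87.3 and 82.7 CPM in DMSO and 64.7, 66.6 and 66.1 CPM in B23, a 1.30-fold fall with groups apart. INSR, the insulin receptor, fell 1.22-fold, from 58.8, 60.7 and 58.3 CPM to 47.2, 49.3 and 48.9 CPM. MET, the receptor of hepatocyte growth factor, fell 1.92-fold, from 92.1, 91.6 and 89.1 CPM to 46.5, 47.1 and 48.3 CPM (log2 difference -0.94, SE 0.035, limma adjusted p = 8.04e-18). In DMSO its level per kilobase came after those of EFNB2 and FGFR3 among the 45 genes, at 12.9 ± 0.224 CPM per kb (SD, n = 3). Its relative MST1R was at 0.723 to 1.16 CPM, below the filter, with overlapping groups.

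PDGFRA, the receptor of platelet-derived growth factors, had the largest fall of the members. It was at 7.49, 7.83 and 8.01 CPM in DMSO and 1.89, 2.04 and 2.39 CPM in B23, 3.69-fold lower by mean (log2 difference -1.67, SE 0.084, limma adjusted p = 2.43e-15). The lowest library held 94 reads. AC058822.1 overlaps 1533 exonic bases of PDGFRA on the same strand and moved the other way, from 23.6 ± 1.42 to 47.6 ± 1.29 CPM (SD, n = 3, log2 difference 1.00), so the split of reads between them is uncertain. KIT, the stem cell factor receptor, lies 359.7 kb from PDGFRA on chromosome 4 and overlaps no listed gene. It fell 2.25-fold, from 19.7, 20.1 and 20.6 CPM to 8.48, 9.37 and 9.01 CPM, without overlap (log2 difference -1.13, SE 0.056, limma adjusted p = 1.75e-15).

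TYRO3 and MERTK, receptors for GAS6 and protein S that help clear dying cells, differed in direction. TYRO3 was at 37.9, 40.2 and 39.2 CPM in DMSO and 55.9, 51.9 and 56.6 CPM in B23, 1.4-fold higher (log2 difference 0.48, SE 0.041, limma adjusted p = 7.76e-11). MERTK fell 1.29-fold, from 11.1, 11.3 and 11.4 CPM to 9.31, 8.20 and 8.71 CPM, and was not called with quantile normalization (0.04, adjusted p = 0.550). AXL, the remaining TAM family member, was at 0.345 to 0.445 (DMSO) and 0.152 to 0.201 CPM (B23), 7 to 28 reads, and was not tested. LTK, which lies 43.8 kb from TYRO3 on chromosome 15, was at 4.54, 4.34 and 4.75 CPM and at 5.12, 4.37 and 4.73 CPM, with overlapping groups and no call (log2 difference 0.05, SE 0.079, limma adjusted p = 0.528). With equal totals LTK was called lower (-0.18, adjusted p = 0.0416), while quantile normalization gave a call upward (0.54, adjusted p = 1.96e-06). RET, the GDNF receptor subunit of ureteric bud and enteric neurons, rose 2.13-fold, from 2.34, 2.24 and 2.35 CPM to 4.59, 4.98 and 5.22 CPM (log2 difference 0.95, SE 0.083, limma adjusted p = 1.28e-10). NTRK2, the receptor of brain-derived neurotrophic factor, fell 1.93-fold, from 6.02, 4.88 and 5.05 CPM to 3.15, 2.41 and 2.69 CPM (log2 difference -0.84, SE 0.094, limma adjusted p = 1.17e-08).

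The collagen receptors both rose. DDR2, which binds fibrillar collagen, was at 2.55, 2.20 and 2.41 CPM in DMSO and 5.88, 6.02 and 5.998 CPM in B23, 2.50-fold higher with groups far apart (log2 difference 1.16, SE 0.081, limma adjusted p = 1.4e-12). DDR1, the collagen receptor of epithelia, was at 44.5, 43.8 and 44.5 CPM and at 52.4, 46.9 and 54.1 CPM, 1.15-fold higher (log2 difference 0.20, limma adjusted p = 0.000209). The DDR1 call ended with quantile normalization (0.09, adjusted p = 0.0643) and its sign turned with equal totals (-0.05, adjusted p = 0.304). Among receptors tied to Wnt signalling, ROR1 and ROR2, receptors for WNT5A, fell. ROR1 was at 22.4, 22.3 and 22.0 CPM and fell to 6.99, 7.37 and 7.18 CPM, 3.10-fold lower (log2 difference -1.57, SE 0.055, limma adjusted p = 1.58e-18). ROR2, which mice need for limb and skeletal growth, fell 2.48-fold, from 9.26, 9.87 and 9.58 CPM to 3.98, 3.83 and 3.77 CPM (log2 difference -1.21, SE 0.069, limma adjusted p = 3.41e-14). The DMSO and B23 libraries of these genes stood clear of each other.

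RYK, an atypical Wnt receptor with an inactive kinase domain, rose 1.28-fold, from 52.3, 57.9 and 57.1 CPM to 70.0, 71.9 and 71.6 CPM (log2 difference 0.35, SE 0.040, limma adjusted p = 1.28e-08). PTK7, a pseudokinase of planar cell polarity, was at 100.1, 105.4 and 104.5 CPM in DMSO and 91.3, 89.7 and 95.1 CPM in B23. Its groups did not overlap and it was 1.12-fold lower (log2 difference -0.17, limma adjusted p = 0.000123), a call that ended with median-of-ratios scaling (-0.07, adjusted p = 0.0839).

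Shares within a family do not change when a library is multiplied by 1 factor, since they are ratios inside a library. Quantile normalization uses no such factor, and shares were not computed after it. Each gene's CPM was divided by its exon length and by the family's sum. The length is that of exons merged over all annotated transcripts, so levels and shares set between genes depend on it. FGFR1 and FGFR3 were at 73.4 and 77.6 CPM in DMSO, with 13842 and 4848 such bases. These shares were not tested. EPHA2 made up 22.8%, 23.3% and 25.4% of the EphA sum in DMSO and 48.8%, 46.5% and 47.6% in B23, while EPHA7 went from 33.6%, 32.5% and 32.2% to 17.8%, 17.4% and 17.5%. EPHA2 thus took the leading place from EPHA7 in every B23 library. EFNA1 went from 21.2%, 19.8% and 21.9% of the ephrin-A sum to 39.2%, 41.0% and 42.7%. FGFR2 went from 24.3%, 25.2% and 23.6% of the FGF receptor sum to 9.33%, 9.45% and 9.70%, while FGFR3 went from 53.2%, 53.5% and 54.9% to 65.3%, 65.0% and 65.6%. EGFR replaced ERBB2 as the leading ErbB gene, with 28.3%, 28.1% and 29.1% in DMSO and 49.3%, 50.9% and 50.1% in B23, against 50.2%, 49.3% and 47.4% and then 32.0%, 32.2% and 30.9% for ERBB2. Among ROR1, ROR2, RYK and PTK7, the share of ROR1 went from 14.8%, 13.9% and 13.9% to 5.06%, 5.32% and 5.06%, and PTK7 was at 49.1% ± 0.196 in DMSO and 49.1% ± 0.827 in B23 (SD, n = 3). With the CPM as deposited, EphA receptors summed to 22.9 CPM per kb in DMSO and 27.9 in B23, and EphB receptors to 11.8 and 9.004. Ephrin-A ligands summed to 13.2 and 16.7 CPM per kb and ephrin-B ligands to 43.1 and 36.4. By these means the class A sums rose and the class B sums fell. EPHA2 alone went from 5.44 to 13.3 CPM per kb and EFNA1 alone from 2.77 to 6.85. Each gained more than the sum of its class gained, so without them the class A sums were lower in B23. Of the tested EphA receptors 2 were called higher, 2 lower and 3 not called, beside 39.6% higher and 49.0% lower among all tested genes. Of the ephrin-A ligands 2 were higher, 1 lower and 1 not called, beside the same shares. The higher call of EFNA4, counted here, ended in 6 alternatives. Over both classes Eph receptors went from 34.7 ± 0.349 to 36.9 ± 0.754 CPM per kb, the 26 other receptors from 104.5 ± 1.47 to 99.5 ± 1.81 and ephrins from 56.3 ± 1.07 to 53.1 ± 1.97 (SD, n = 3).

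**Figure D4:**
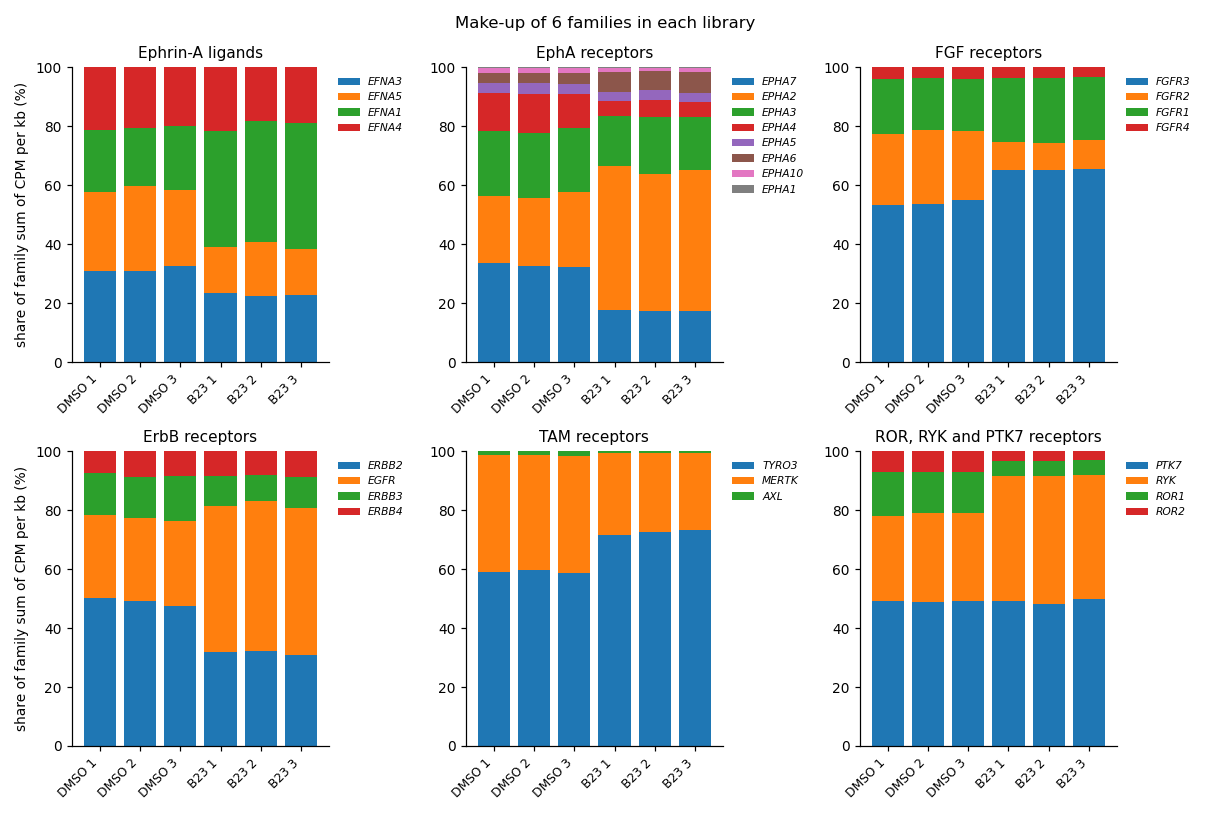
Share of each gene in its family's sum of CPM per kilobase of exon, in percent, as stacked bars for each of the 6 libraries and 6 families. EPHA2 grows from 23.8% to 47.6% of the EphA sum by group means, EGFR from 28.5% to 50.1% of the ErbB sum, and FGFR2 shrinks from 24.4% to 9.49% of the FGF receptor sum.

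Genes listed as soluble ligands of these receptors were mostly lower in B23. Of 54 listed 28 were tested, and 4 rose, 21 fell and 3 did not pass in limma, with a median log2 difference of -0.42 beside -0.10 for all genes, of which 39.6% were higher and 49.0% lower. The 4 that rose were EGF, HBEGF, FGF11 and FGF12. The list includes FGF11, FGF12 and, among those that fell, FGF13, which encode FGF homologous factors that stay inside the cell and are not receptor ligands. WNT5A, the ligand of ROR receptors, fell 3.28-fold from 38.1 ± 0.296 to 11.6 ± 0.680 CPM (SD, n = 3, log2 difference -1.67, limma adjusted p = 6.27e-20). NRG2, a neuregulin that acts through ERBB3 and ERBB4, fell 3.22-fold from 9.44 ± 0.313 to 2.93 ± 0.0928 CPM, and HBEGF, an EGFR ligand, rose 3.14-fold from 7.62 ± 0.0826 to 23.9 ± 0.645 CPM. Ligands chosen after their values were seen were PDGFC for PDGFRA and KITLG for KIT. PDGFC was 2.02-fold lower, and KITLG was at 37.1 ± 1.18 CPM (DMSO) and 37.0 ± 2.44 CPM (B23) (limma adjusted p = 0.919). Also chosen in this way were the EGFR ligands TGFA and BTC, called lower (log2 differences -0.40 and -1.25), while EGF was called higher (0.24) and EGFR rose. GDNF, a ligand of RET, was called lower (-0.54) while RET rose. Whether ligands and receptors moved together was not tested. With quantile normalization 9 genes of this list were higher and 13 lower, and 2 were higher without DMSO replicate 3, with equal totals or among genes of at least 5 CPM, where 10 were lower.

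Of adaptors that dock on the receptors, 10 of 25 tested were higher, 14 lower and 1 not called, near the shares of all genes (39.6% higher, 49.0% lower). SHC2, an adaptor of neural cells, rose 6.24-fold from 16.3 ± 1.02 to 101.4 ± 5.02 CPM. The insulin receptor substrate genes IRS4 and IRS1 fell, IRS4 6.71-fold from 526 ± 4.82 to 78.3 ± 4.88 CPM and IRS1 3.27-fold from 14.8 ± 0.481 to 4.52 ± 0.361 CPM (SD, n = 3). IRS4, a known mark of HEK293 cells, overlaps AL035425.2 on the same strand, which was at 124.6 CPM (DMSO) and 17.9 CPM (B23). Of 21 tested genes listed as attenuators, a role not examined here, 10 were higher, 9 lower and 2 not called. The shares of all genes were the same as above. The ubiquitin ligase gene NEDD4L rose 2.24-fold, the phosphatase gene PTPN2 rose 2.13-fold and LRIG3, a membrane protein of the family of the ErbB inhibitor LRIG1, fell 2.39-fold.

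Of 28 genes that act downstream of Eph receptors and ephrins, 15 were higher, 6 lower and 7 not called in limma, beside 39.6% higher and 49.0% lower among all genes. The scaffold gene ITSN2 rose 2.27-fold, and LYN, a SRC family kinase gene, fell 2.94-fold from 33.4 ± 1.60 to 11.3 ± 0.537 CPM (SD, n = 3). CHN2, a RAC regulator, fell 2.38-fold and overlaps AC004593.3 on the same strand, at 12.7 CPM (DMSO) and 5.35 CPM (B23). On this list 13 genes were higher and 14 lower with equal totals, and 15 higher and 10 lower with quantile normalization. With median-of-ratios scaling 19 were higher and 5 lower. Among 12 sheddases and subunits of gamma-secretase, proteases that cut ephrins, Eph and ErbB receptors at the membrane, 0 rose, 10 fell and 2 did not pass in limma, where 39.6% of all genes were higher and 49.0% lower. With edgeR and DESeq2 the number that rose was also 0, and at an unadjusted p under 0.05 it was 0 in each of these tests. APH1B, a gamma-secretase subunit gene, fell 4.19-fold from 11.1 ± 0.0860 to 2.65 ± 0.224 CPM, the metalloprotease gene ADAM12 fell 1.88-fold and BACE1, the beta-secretase gene, fell 1.75-fold. BACE1 overlaps BACE1-AS and RNF214 on the opposite strand, at 7.94 and 23.3 CPM in DMSO and 7.45 and 30.5 CPM in B23. Of 7 tested genes listed as receptor tyrosine kinases outside the families followed here, 1 rose, 5 fell and 1 did not pass. The shares of all genes were 39.6% higher and 49.0% lower. LMTK2, on this list by its lemur tyrosine kinase name, was 1.53-fold lower. The vascular endothelial growth factor receptor genes FLT1 and FLT4 were 1.2-fold and 1.13-fold lower. FLT4 had no call in median-of-ratios scaling (limma adjusted p = 0.138).

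**Figure D5:**
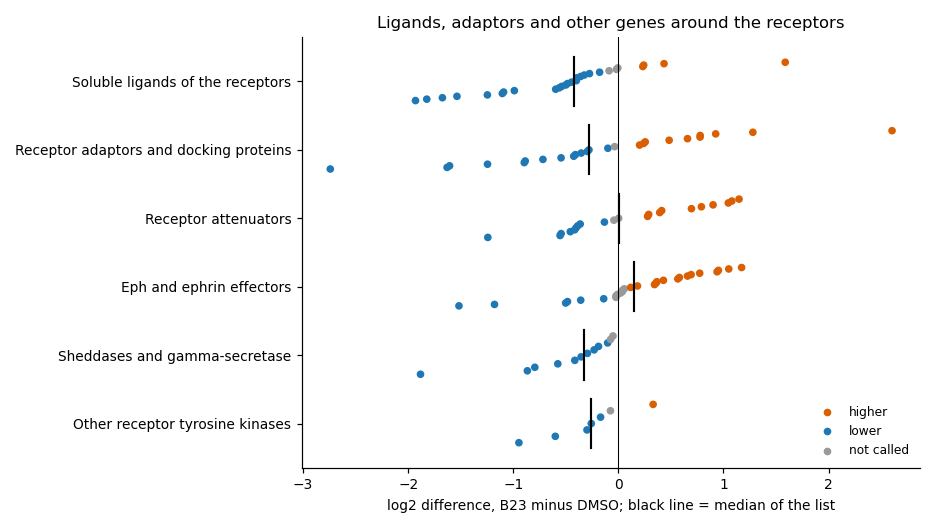
Log2 difference, B23 minus DMSO, of each tested gene in 6 lists around the receptors, coloured by its call, with the median of each list as a black line. The ligands have the lowest median, -0.42, the Eph and ephrin effectors the highest, 0.15, and no sheddase or gamma-secretase gene was called higher.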

How the data were processed

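Reads were processed by the authors. The submitters' processing notes list edgeR, HTSeq, SAMtools and STAR 2.6.1d and the genome hg38, without order or settings, and the kit was a stranded one for mRNA, per the labels' protocols. No source used here gives the annotation, the strand setting or the filter on listed genes. The deposited values are CPM, 1 column per library, scaled by the authors with divisors that are not the listed totals. These divisors were 6.08e+07 to 6.32e+07 reads in DMSO and 4.60e+07 to 5.08e+07 reads in B23. Added over all rows, a DMSO library reached 745216 to 753745 CPM and a B23 library 890367 to 900113 CPM. Scaling to equal totals takes this group difference out and so lowers B23 values relative to DMSO. The cause of the difference was not tested. Every value was a whole multiple of 1 read within 0.001 reads (100%), and 40950318 to 47444126 reads per library were recovered.

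The 14792 of 15496 genes whose mean reached 1 CPM were tested on log2(CPM + 0.5) in limma 3.58.1 under R 4.3.3, B23 against DMSO, using its trend and robust options, two-sided, Benjamini-Hochberg adjusted over all of them at 0.05. The log2 scale with a pseudocount understates changes of low genes, and folds compare mean CPM. The SD covers n = 3 libraries. Gene models, exon lengths and overlaps came from GENCODE 29 on GRCh38, the assembly of hg38, and promoters from RefSeq on GRCh38.p14, matched by symbol for 41 of 45 members. Beside members and genes named by the rule below, overlapping genes are named from 10% of that gene's mean. Promoter windows on chromosome 8 were not used. edgeR 4.0.16 and DESeq2 1.42.0 were run on the recovered reads as alternatives.

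All 42 tested members are named, with SE and adjusted p for the 10 largest changes in each direction, and up to 3 genes of at least 5 CPM from each further list. Genes named outside this rule are PDGFC, KITLG, TGFA, BTC, GDNF, EGF, FGF11, FGF12 and FGF13, chosen after their values were seen or to name a small count. Members, lists and tests were chosen with earlier results of these data known.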

Additional observations from a re-analysis of the deposited data

How the results depend on the processing

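The counts of changed members stayed within 1.5 times the reported 13 higher and 22 lower in all 19 alternatives: 9 to 18 were higher and 20 to 28 lower. Leaving out 1 library at a time gave 11 to 13 higher and 22 to 23 lower. Over all tested genes the alternatives gave 4353 to 6554 higher and 5424 to 9050 lower. Of these, 4353 and 9050 were with equal totals, where 9 members were higher and 28 lower. The 5424 came with the filter of at least 5 CPM, which tests fewer genes. Leaving out 1 library gave 5737 to 5827 higher and 7092 to 7240 lower over all genes. Of the 42 tested members, 27 kept their sign and their call in all alternatives run for them, among them EPHA2, EFNA1, EPHA6, DDR2, RET, FGFR1, FGFR2, FGFR3, MET, KIT, PDGFRA, ROR1, ROR2, ERBB2 and ERBB3. Over all genes the median difference (log2) was -0.10 as deposited, -0.01 with median-of-ratios scaling, -0.03 with TMM and with quantile normalization, and -0.34 with equal totals of the listed genes. Signs turned with equal totals for DDR1 (-0.048), EPHA3 (-0.23), EPHA5 (-0.11), FGFR4 (-0.041) and LTK (-0.18). With quantile normalization they turned for EFNA3 (0.32), EPHA10 (0.42), EPHB1 (0.41), EPHB3 (0.25) and MERTK (0.039). EFNB2 turned with median-of-ratios scaling (0.082) and TMM (0.053). EPHA3, near 0, turned without DMSO replicate 3 (-0.0033) and without B23 replicate 2 (-0.015). The cause of these turns was not tested, beyond the shift of all genes given by each scaling. Replicate numbers are shared between the groups, but deviations of same-numbered libraries from their group means correlated at 0.0256, -0.0703 and -0.0621, so the numbers were not taken to pair the libraries. With the replicate block 13 members were higher and 22 lower, and 5850 and 7256 of all genes. Depth limits EPHA1 and AXL, at 1 to 28 reads per library.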

Other observations

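Genomic span was set beside the calls as a description. Of the 20 tested members that span at least 100 kb, 4 were higher and 13 lower in limma, with a median log2 difference of -0.37, while all 2811 coding genes of that span had a median of 0.00 with 43.7% higher and 43.7% lower. The 22 shorter members had 9 higher and 9 lower and a median of -0.06 (40.9% each way), beside -0.10 for 10400 coding genes, of which 40.1% were higher and 49.4% lower. The members of largest span were ERBB4, at 1163125 bases, which fell, and EPHA6, at 937880 bases, which rose. Receptors with at least 10 exons, 34 of those tested, had 11 higher and 18 lower (32.4% and 52.9%), with a median of -0.19. The 6659 coding genes with as many exons had a median of 0.12, with 50.7% higher and 38.1% lower. No test was made of these differences, and the value of 100 kb was chosen with the results known.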
